A study of Mus musculus with 42 samples.

Results

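Some control livers carried clear signal from genes of the exocrine pancreas and others did not. Control arrays were divided by Cpb1, which encodes procarboxypeptidase B1, a digestive zymogen of pancreatic acinar cells. Arrays with a log2 value above 6 for the brightest probe set of Cpb1 were called Cpb1-rich, and arrays below 4 Cpb1-poor. Of the 18 control arrays, 8 were Cpb1-rich (replicates 1, 2, 3, 6, 7, 10, 14 and 17) and 9 were Cpb1-poor (replicates 4, 8, 9, 11, 12, 13, 15, 16 and 18), while replicate 5 lay between the limits at 5.37. The whole series held 42 arrays. Just inside the limits stood replicate 2 at 6.65 and replicate 16 at 3.78. The groups were chosen by a measured value, so every difference between them is a description without a test. Relations with Cpb1 were tested on the 24 arrays of mice on a high-fat diet (HFD), which played no part in the division.

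The series followed liver gene expression in male wild-type C3HeB/FeJ mice during a short HFD challenge, on Affymetrix whole-transcript arrays. All mice were single-housed and random-fed, and no transgene or deletion was named. Control mice received a low-fat diet for up to 21 days and were 15 to 17 weeks old. HFD mice were sampled after 7 days at 15 weeks, 14 days at 16 weeks or 21 days at 17 weeks, with 8 arrays at each time. The labels number the replicates without naming an animal, so every p-value rests on variation among these arrays, some of which may be technical. Titles of the control and 21-day arrays carry the word reanalysis, and those of the 7-day and 14-day arrays do not.

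Acinar cells make up most of the pancreas and store digestive enzymes as inactive zymogens in secretory granules. Trypsinogens, chymotrypsinogens, proelastases and procarboxypeptidases digest protein, lipases and phospholipase digest fat, and a ribonuclease digests RNA. Islet cells make hormones, and duct cells line the channels that carry the enzymes to the gut.

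The identity of the tissue was checked first. Alb, the plasma albumin gene of hepatocytes, had log2 values of 13.25 to 13.37 in Cpb1-rich arrays and 13.32 to 13.58 in Cpb1-poor arrays. Array medians over all probe sets ran from 3.08 to 3.28. Background was set at 2.86, the 95th percentile of 929 olfactory receptor genes, whose median was 2.28. Of the 17989 genes, 67.5% had means above it. One probe set, left out, had values only on control arrays 1 to 9 and lacked them on 33 arrays. Of the Cpb1-rich arrays, 5 carried numbers 1 to 9 and 3 carried numbers 10 to 18, against 3 and 6 of the Cpb1-poor arrays.

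The promoters of 4 genes whose levels varied with Cpb1 are shown because the acinar transcription factor complex PTF1, which contains PTF1A, binds a sequence that includes an E-box. The letters searched were CACCTG on both strands, so CAGGTG on the printed strand, and no other motif was searched. Each sequence is the 250 bases before the RefSeq start of the gene, printed 5′ to 3′ on the gene's strand, with each match in capitals. Coordinates are of build GRCm38.p6: chr3:20275734-20275983 (minus strand) for Cpb1, chr6:41521526-41521775 (plus) for Prss2, chr2:28563404-28563653 (minus) for Cel and chr4:137430521-137430770 (minus) for Cela3b.
Cpb1: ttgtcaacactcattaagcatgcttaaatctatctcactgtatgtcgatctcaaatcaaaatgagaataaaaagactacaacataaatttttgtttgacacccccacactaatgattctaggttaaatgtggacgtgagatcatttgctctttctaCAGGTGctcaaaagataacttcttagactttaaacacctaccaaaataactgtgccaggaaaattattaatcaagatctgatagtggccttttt
Prss2: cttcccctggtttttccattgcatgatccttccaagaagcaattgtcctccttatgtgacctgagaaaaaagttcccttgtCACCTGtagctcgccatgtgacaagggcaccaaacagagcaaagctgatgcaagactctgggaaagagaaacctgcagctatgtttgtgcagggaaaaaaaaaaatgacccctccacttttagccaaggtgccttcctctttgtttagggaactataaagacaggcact
Cel: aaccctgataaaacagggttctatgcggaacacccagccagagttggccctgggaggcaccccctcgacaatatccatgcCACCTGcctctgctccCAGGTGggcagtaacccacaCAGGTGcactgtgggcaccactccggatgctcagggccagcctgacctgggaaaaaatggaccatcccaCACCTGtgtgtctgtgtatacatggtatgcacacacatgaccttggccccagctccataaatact
Cela3b: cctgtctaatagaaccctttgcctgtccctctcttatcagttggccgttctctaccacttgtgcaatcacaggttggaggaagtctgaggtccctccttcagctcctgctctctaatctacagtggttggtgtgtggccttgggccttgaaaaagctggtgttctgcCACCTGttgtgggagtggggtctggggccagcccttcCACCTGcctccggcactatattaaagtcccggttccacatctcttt
Windows of 300 bases, from 250 before to 50 after the start, were found for 21 of the 29 genes that comprise Cpb1 and those called with it on HFD arrays. The letters occurred in 13 of these windows (61.9%) and in 20.2% of 32851 windows of that length. At least 2 matches occurred in 4 of them (19.0%) and in 2.9% of all windows. A match describes the letters and does not show a binding site. Cel had 4 matches, starting at -170, -154, -134 and -65 from the start, and Cela3b had 2, at -83 and -46. Cpb1 had 1 at -94 and Prss2 had 1 at -169. The windows of Ctrb1, Cpa1 and Rnase1 held none.

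Cpb1-rich control arrays had higher values of a compact set of genes, which encode enzymes, a lipase cofactor and granule proteins of acinar cells. Of 17989 genes, 16 (0.0889%) were at least 1 log2 unit higher with no overlap between the groups, and 0 (0%) were lower by this limit. Cpb1 was 1 of the 16, and the rule fixed its place. The acinar lists, 51 measured genes in all, held 15 of the 16, and the other was the trypsinogen-like gene 2210010C04Rik. These lists were chosen with earlier results of these data known. Over all genes the median difference was -0.008 log2 units, and 99.6% of genes differed by less than 0.5. In whole tissue, fewer cells of a type cannot be told apart from less RNA per cell.

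Procarboxypeptidases come first by role. Cpb1 had a lowest, median and highest log2 value of 6.65, 7.75 and 9.36 in Cpb1-rich arrays and of 2.57, 3.19 and 3.78 in Cpb1-poor arrays. The means were 7.77 ± 0.85 (SD, n = 8) and 3.23 ± 0.35 (SD, n = 9), a 23.1-fold difference. The rule separates these values by construction. Cpa1, procarboxypeptidase A1, ran from 5.89 through a median of 8.28 to 10.36 in Cpb1-rich arrays and from 3.68 through 4.04 to 4.90 in Cpb1-poor arrays, a 16.3-fold difference of means.

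Of the chymotrypsinogens, Ctrb1, chymotrypsinogen B1, ran from 6.25 (median 8.35) to 10.11 in Cpb1-rich arrays and from 3.49 (median 4.15) to 4.69 in Cpb1-poor arrays, and the means differed 18.2-fold. Prss2, an anionic trypsinogen, ran from 5.06 (median 6.03) to 7.77 against 3.26 (median 3.61) to 3.91, and the means of 6.19 ± 0.94 (SD, n = 8) and 3.57 ± 0.22 (SD, n = 9) differed 6.11-fold. No Cpb1-poor array reached the lowest Cpb1-rich array for either gene. The trypsinogens Try5 and Try10 were higher by 3.23 and 2.72 log2 units, and Ctrl, a chymotrypsin-like protease, by 3.14. 2210010C04Rik was second of all genes at 4.26 log2 units; it falls outside the naming rule and is named because its value was seen. Probe sets of near-identical trypsinogens can take up each other's transcripts, so the values of single family members are uncertain.

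Among the proelastases, Cela2a was higher by 1.86 log2 units without overlap. Cela3b was higher by 2.25 but overlapped, with a range of 3.87 to 8.46 in Cpb1-rich and 3.44 to 4.07 in Cpb1-poor arrays. Ctrc, chymotrypsin C, and Try4 were each higher by 0.94, while Prss3 and Cela3a were higher by 0.30 and 0.22, and all 4 overlapped. Of the 13 measured proteases, 8 passed the limit and all 13 had positive differences, with a median of 2.61 log2 units. The 13, the 8 and the median include Cpb1, whose place the rule fixed.

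Enzymes that act on fat and nucleic acid varied in the same arrays. Cel, bile salt-dependent carboxyl ester lipase, ran from 4.54 (median 6.30) to 8.60 in Cpb1-rich arrays. In Cpb1-poor arrays it ran from 2.62 (median 2.82) to 3.51, a 10.8-fold difference of means. Its Cpb1-poor values lay around the background level of 2.86, so the size of this difference is uncertain. Pnliprp1, a pancreatic lipase-related protein, was higher by 3.07 log2 units, Rnase1, the pancreatic ribonuclease, by 2.99, and Clps, the lipase cofactor colipase, by 2.54. Those 4 had no overlap and were the members of the 7 measured lipases and nucleases past the limit. Pla2g1b, the pancreatic phospholipase A2, and Pnliprp2 were higher by 1.27 and 1.04 with overlap, and Dnase1 by 0.07. Values of Dnase1 in both groups all lay below the background level of 2.86. Amylase genes were not analysed here.

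Of 12 measured genes for other granule and secreted proteins, 3 passed the limit, and the list's median difference was 0.30. Sycn, which encodes the granule membrane protein syncollin, was higher by 2.46 log2 units. Zg16, a zymogen granule lectin, ran from 3.40 (median 5.24) to 6.81 against 2.52 (median 2.93) to 3.16, a 4.70-fold difference. The lower values lay around background, so the size of this difference is uncertain. Gp2, the major glycoprotein of the zymogen granule membrane, ran from 2.87 (median 3.62) to 5.88 against 2.35 (median 2.58) to 2.70. Its Cpb1-poor values all lay below the background level of 2.86, so the size of its difference is not measured. Dmbt1, a secreted scavenger receptor, and Tff2, a trefoil peptide, were higher by 1.06 and 0.53 with overlap. Spink1, a trypsin inhibitor, differed by 0.24, with all values of both groups below background, so the size of this difference is not measured.

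**Figure D1:**
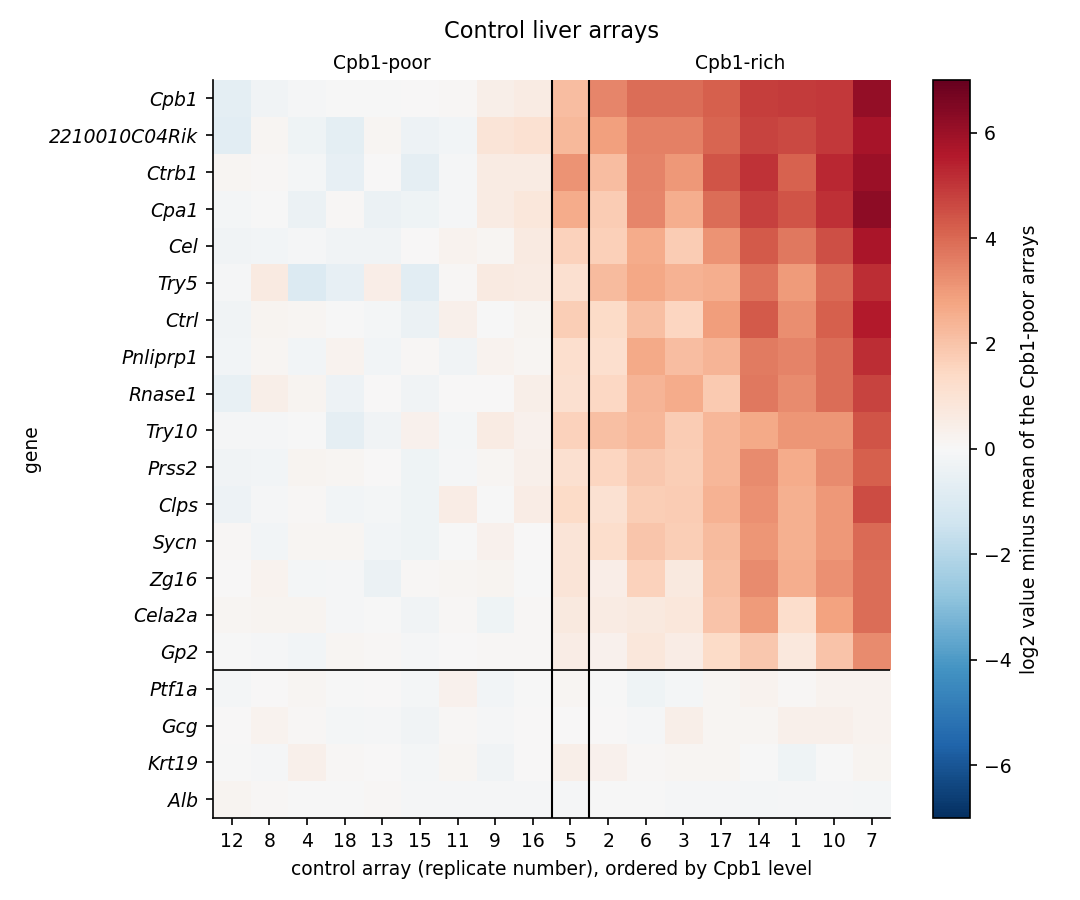
Log2 value of each gene on each of the 18 control arrays minus the mean of the Cpb1-poor arrays (colour scale, log2 units), with arrays ordered by Cpb1 on the horizontal axis and genes on the vertical axis. The 16 genes above the horizontal line are at least 1 log2 unit higher in Cpb1-rich arrays without overlap, replicate 5 stands between the vertical lines, and Ptf1a, Gcg, Krt19 and Alb stay near 0.

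Replicate 7 stood highest throughout. For all 15 genes past the limit other than Cpb1, replicate 7, with the highest Cpb1, was also the highest of the 18 controls. Replicate 5 lay above every Cpb1-poor array for all 15 genes and below every Cpb1-rich array for 7 of them. Its values of 7.23 for Ctrb1 and 6.71 for Cpa1 fell within the Cpb1-rich range. The controls therefore spanned intermediate levels, with 1 array in the gap between the limits.

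The profile was not wholly parallel across Cpb1-rich arrays. Replicates 1, 10 and 14 had nearly the same Cpb1 (8.14, 8.18 and 8.08), and yet Cela3b was 5.06 in replicate 1 against 7.23 and 7.13 in the others. Cela2a was 5.52 in replicate 1 against 7.13 and 7.28, and Gp2 was 3.27 against 4.53 and 4.45. Prss3 ran the other way, at 2.83 against 2.31 and 2.21, but these values all lay below the background level of 2.86. Over all Cpb1-rich arrays, Prss3 did not overlap between numbers 1 to 9 (2.83 to 3.26) and numbers 10 to 18 (2.21 to 2.34). The values on numbers 10 to 18 were below background, so the size of this difference is not measured. Of the 51 acinar genes, 2 were higher without overlap in numbers 1 to 9 and 1 in numbers 10 to 18, where 2.97% and 2.51% of all genes were, a share near the background. Whether the number of an array has a part in these differences was not tested.

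Acinar genes that are not secreted products hardly differed in value, though several were too dim to show a difference. The 13 measured genes of acinar cell machinery and receptors had a median difference of 0.06 log2 units (range -0.06 to 0.23), and 0 passed the limit. Means over all arrays lay above background for 6 of the 13. Cckar, the cholecystokinin receptor, differed by 0.09 and Pdia2, a pancreatic protein disulfide isomerase, by 0.23. Both had group means below the background level of 2.86, so an absence of change is not shown for them. The 6 transcription factors had a median difference of 0.02 and 0 passed. Ptf1a ran from 2.40 (median 2.81) to 2.97 in Cpb1-rich arrays and from 2.50 (median 2.69) to 3.01 in Cpb1-poor arrays, at the background level in both. Nr5a2, a nuclear receptor that the liver also uses, differed by -0.26.

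Markers of other pancreatic cells did not separate the groups. The 5 islet hormone genes measured differed by -0.15 to 0.20 log2 units: Gcg by 0.20, Ghrl by 0.12, Ppy by -0.07, Sst by -0.13 and Pyy by -0.15. Gcg, the glucagon gene, ran from 2.36 to 2.84 in Cpb1-rich arrays and from 2.20 to 2.69 in Cpb1-poor arrays, below the background level in all of them. Ins1, Ins2 and Iapp were not analysed here. Over all 23 islet genes the summed level, as a mean of log2 values, was 3.12 to 3.23 in Cpb1-rich and 3.05 to 3.23 in Cpb1-poor arrays. Means over all arrays lay above background for 13 of the 23 islet genes and 7 of the 11 duct genes. The 11 duct genes had a median difference of 0.04, with Krt19, a keratin of duct epithelium, at 3.23 to 3.84 against 3.29 to 3.87. The 13 stromal genes had a median of 0.06, the 7 fat cell genes 0.12 and the 11 lymphoid genes 0.06, and 0 members of these lists passed the limit.

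Liver lists had small negative medians without any gene past the limit. Of 34 hepatocyte genes 29 had negative differences, with a median of -0.11, and the mean level over the list was 10.27 to 10.58 in Cpb1-rich and 10.31 to 10.66 in Cpb1-poor arrays. Cps1, the first enzyme of the urea cycle, differed by -0.32 (medians 11.70 and 12.03), and Apob, the scaffold of very low density lipoprotein, by -0.50. Endothelial genes had a median of -0.22 with 7 of 8 negative, and macrophage genes -0.12 with 10 of 11 negative. The endothelial list's mean level ranged over 4.34 to 4.88 in Cpb1-rich arrays and 4.47 to 4.98 in Cpb1-poor arrays, so the groups overlapped for most of their span. Genes of endoplasmic reticulum translocation and folding, used by acinar cells and hepatocytes alike, had a median of -0.03. Malat1, a nuclear RNA, ran from 6.44 to 9.13 and from 5.49 to 9.49.

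**Figure D2:**
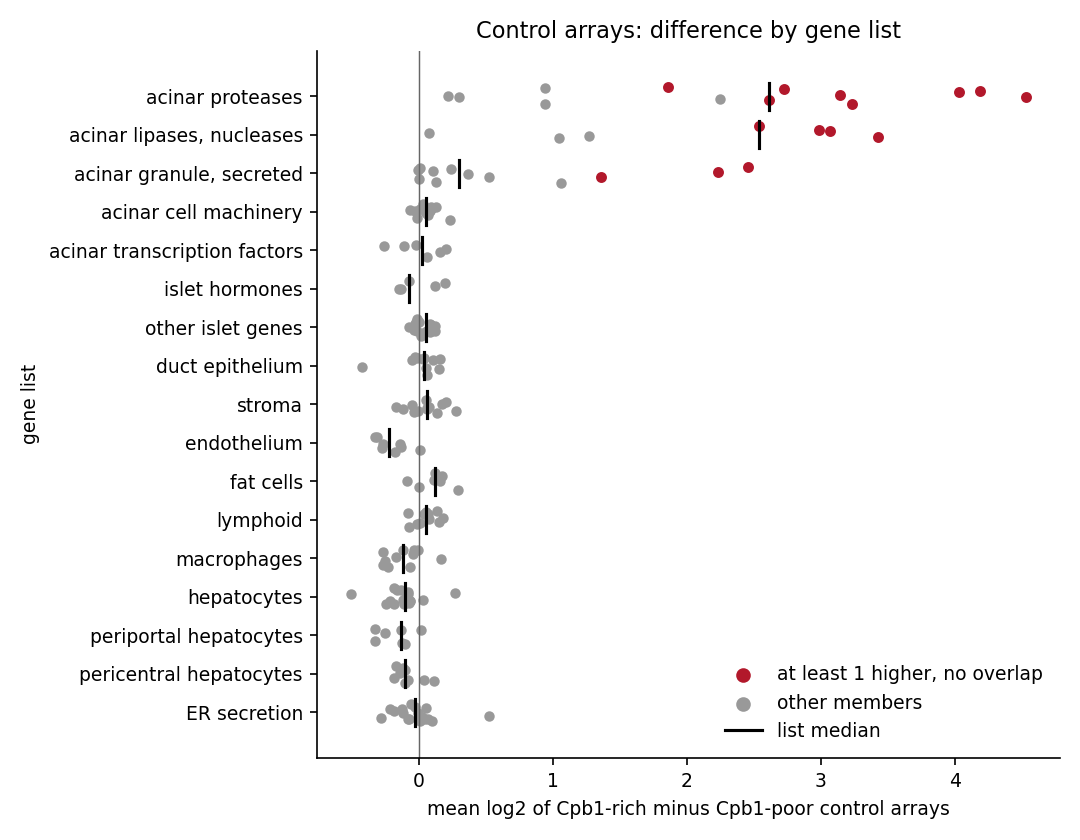
Mean log2 value of Cpb1-rich minus Cpb1-poor control arrays (horizontal axis, log2 units) for each measured gene, grouped by list (vertical axis), with red points for genes at least 1 higher without overlap and a bar at each list median. Red points occur in the 3 lists of secreted acinar products, whose medians are 2.61, 2.54 and 0.30. The list with the median of 2.61 includes Cpb1, whose place the rule fixed. The medians of the other lists drawn lie between -0.22 and 0.12.

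The most negative differences in the whole table all overlapped between the groups, and 2 of them were larger than 1 log2 unit in size. Rgs16, a regulator of G protein signalling, was lower by a mean of 1.27 log2 units, with 3.70 (median 4.41) to 5.96 in Cpb1-rich and 4.29 (median 5.67) to 7.60 in Cpb1-poor arrays. Depp1, a gene induced by FOXO factors, was 4.11 (median 5.51) to 7.15 against 4.84 (median 6.84) to 7.90, a mean difference of -1.14. These were the 2 genes with means at least 1 log2 unit lower, against 21 genes at least 1 higher. Next, among genes within the naming rule, came the transcription repressor Bcl6 at -0.89, the circadian genes Dbp at -0.83 and Nr1d1 at -0.80, and the hepcidin gene Hamp2 at -0.81. Pate11, B3galt1, Raet1d and Pgap1 had differences of -0.76, -0.75, -0.72 and -0.72. All 10 overlapped between groups. None of the 10 therefore passed the limit. Ignoring the size limit, 19 genes (0.106%) had no overlap, all higher in Cpb1-rich arrays; the 3 with less than 1 log2 unit were Gm5409 (0.93, a trypsinogen pseudogene), Gm807 (0.39) and Nuak1 (0.28), named because their values were seen.

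HFD arrays, which the division did not use, gave a test. Cpb1 ran from 2.87 (median 6.26) to 10.96 at 7 days, from 2.88 (median 6.48) to 10.45 at 14 days and from 3.02 (median 4.07) to 8.59 at 21 days. Low and high arrays occurred at each time. The slope of each gene on Cpb1, in log2 units per log2 unit, was fitted with limma with HFD day as a factor. Of 17988 genes tested, 28 rose with Cpb1 (0.156%) and 0 fell (0%) at a Benjamini-Hochberg adjusted p under 0.05. At an unadjusted p under 0.05 there were 497 positive and 931 negative slopes, and the lowest adjusted p outside the 28 genes was 0.379. The median slope of all genes was 0.001.

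The acinar lists held 26 of the 28 genes, and the others were 2210010C04Rik and Gm5409. The lists were chosen with earlier results of these data known, so this share is a description. All 15 genes past the limit in controls other than Cpb1 were among the 28 genes, and they made up 53.6% of the 28. Slopes ran from 0.11 to 0.94, and 15 were above 0.5. Background signal narrows the log2 range of dim genes, and its part in the slopes was not tested.

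All 12 tested acinar proteases rose with Cpb1, with a median slope of 0.627. Prss2 ran from 3.39 (median 4.90) to 9.69 at 7 days, up to 9.40 (median 5.44) at 14 days and from 3.44 (median 4.16) to 6.70 at 21 days. Its slope was 0.679 (SE 0.038, limma adjusted p = 1.15e-12). Ctrb1 had a slope of 0.875 (SE 0.044, limma adjusted p = 1.42e-13) and Cpa1 of 0.879 (SE 0.048, limma adjusted p = 6.93e-13). The trypsinogen Try5 had 0.802 (SE 0.026, limma adjusted p = 7.95e-18), and 2210010C04Rik the steepest of all, 0.945 (SE 0.024, limma adjusted p = 3.23e-20). The shallowest were Prss3 at 0.106 (limma adjusted p = 0.00559) and Cela3a at 0.132 (limma adjusted p = 0.00966), and both overlapped between the control groups.

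Of the 7 lipase and nuclease genes 6 rose, with a median slope of 0.711. Rnase1 had a slope of 0.779 (SE 0.037, limma adjusted p = 8.44e-14), Cel 0.798 (SE 0.046, limma adjusted p = 2.32e-12) and Clps 0.711 (limma adjusted p = 1.45e-13). Pnliprp2 and Pla2g1b, which overlapped in the controls, rose with slopes of 0.378 and 0.347 (limma adjusted p = 1.41e-05 and 0.000379). Dnase1 did not pass, with a slope of 0.003.

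Among the granule and secreted genes 7 of 12 rose: Sycn (0.712), Zg16 (0.552), Gp2 (0.515), Dmbt1 (0.324), Cuzd1 (0.184), Serpini2 (0.183) and Tff2 (0.165). Their limma adjusted p-values ran from 1e-10 for Sycn to 0.0487 for Cuzd1, a granule membrane protein, whose call held in 16 of 38 alternatives. The call of Serpini2 held in 29 of 37, and its medians at the HFD times lay below background. Spink1, Reg2, Reg3a, Reg3d and Reg3g did not pass. Of the 13 machinery genes 1 rose, Pdia2, with a slope of 0.149 (SE 0.031, limma adjusted p = 0.0401), a call that held in 14 of 37 alternatives. Nupr1, a stress-induced nuclear protein, had 0.071 (limma adjusted p = 0.515). Of the 6 transcription factors 0 passed, 0 of them at an unadjusted p under 0.05, and Ptf1a had a slope of 0.035 (limma adjusted p = 0.656). Medians of Ptf1a at the HFD times ran from 2.72 to 2.87, near background, so an absence of change is not shown for it.

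**Figure D3:**
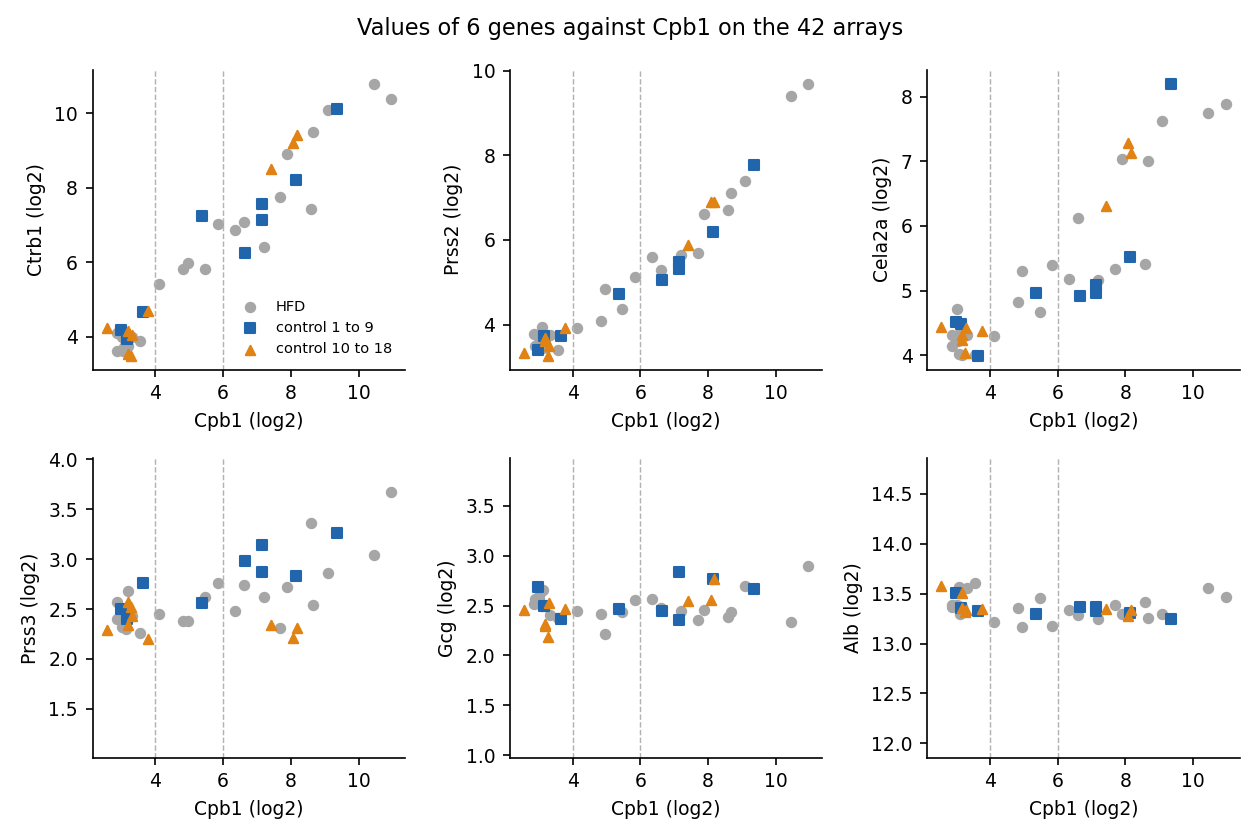
Log2 value of 6 genes (vertical axes) against the log2 value of Cpb1 (horizontal axes) on the 42 arrays, with HFD arrays in grey, control arrays 1 to 9 as blue squares and 10 to 18 as orange triangles, and dashed lines at 4 and 6. Ctrb1 and Prss2 climb with Cpb1 in all groups, Cela2a overlaps between the control numbers, and Gcg and Alb stay level. Prss3 separates the control numbers at high Cpb1, with values near or below the background level of 2.86.

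None of the other lists held a gene called with Cpb1 by limma on HFD arrays. Over all 17988 genes, 497 positive and 931 negative slopes had an unadjusted p under 0.05 in limma. The counts by list below are to be read beside these. Among the 23 islet genes 1 passed an unadjusted p under 0.05, Pcsk1, a prohormone convertase, with a slope of 0.033 (limma adjusted p = 0.611). Gcg had a slope of 0.004 (limma adjusted p = 0.96). Its HFD values ran from 2.22 to 2.90, near or below background, so an absence of change is not shown for it. The 11 duct genes included 1 positive and 1 negative slope at an unadjusted p under 0.05, and Krt19 had a slope of 0.011 (limma adjusted p = 0.893). The 13 stromal genes likewise included 1 of each, Dpt at 0.073 and Col1a2 at -0.063 (limma adjusted p = 0.619 and 0.611). The 34 hepatocyte genes had a median slope of -0.015, with 2 negative slopes at an unadjusted p under 0.05, and Alb had -0.004 (limma adjusted p = 0.953). The 8 endothelial genes had a median of -0.028 and 2 such slopes, and the 11 macrophage genes had a median of 0.01 and 2 negative ones. Malat1 had a slope of 0.09 (limma adjusted p = 0.85).

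The genes lowest in Cpb1-rich controls were not called as falling with Cpb1 on HFD arrays. Rgs16 had a slope of 0.00 (limma adjusted p = 1), Depp1 of -0.065 (limma adjusted p = 0.726), Bcl6 of -0.10 (limma adjusted p = 0.782) and Nr1d1 of -0.068 (limma adjusted p = 0.622). None of these slopes passed the adjusted threshold, though Nr1d1 had an unadjusted p of 0.0436 in limma.

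**Figure D4:**
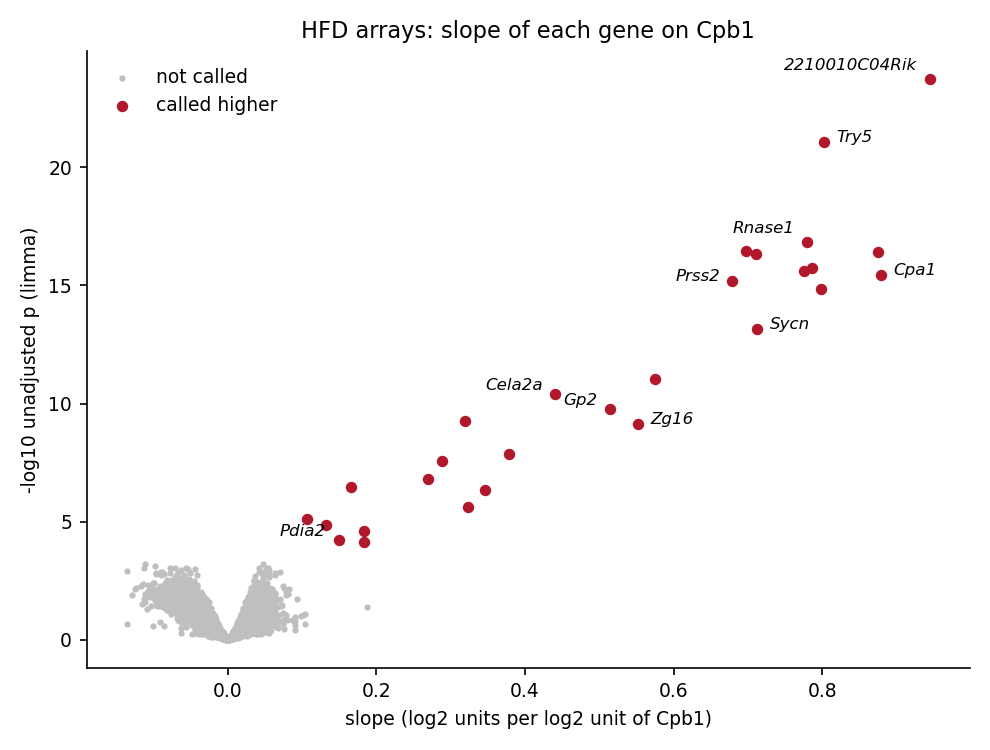
Slope of each gene on Cpb1 over the 24 HFD arrays (horizontal axis, log2 units per log2 unit of Cpb1) against the -log10 unadjusted p of the limma fit (vertical axis), with the 28 called genes in red and some named. Called slopes run from 0.11 to 0.94, and all called genes lie on the positive side.

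**Figure D5:**
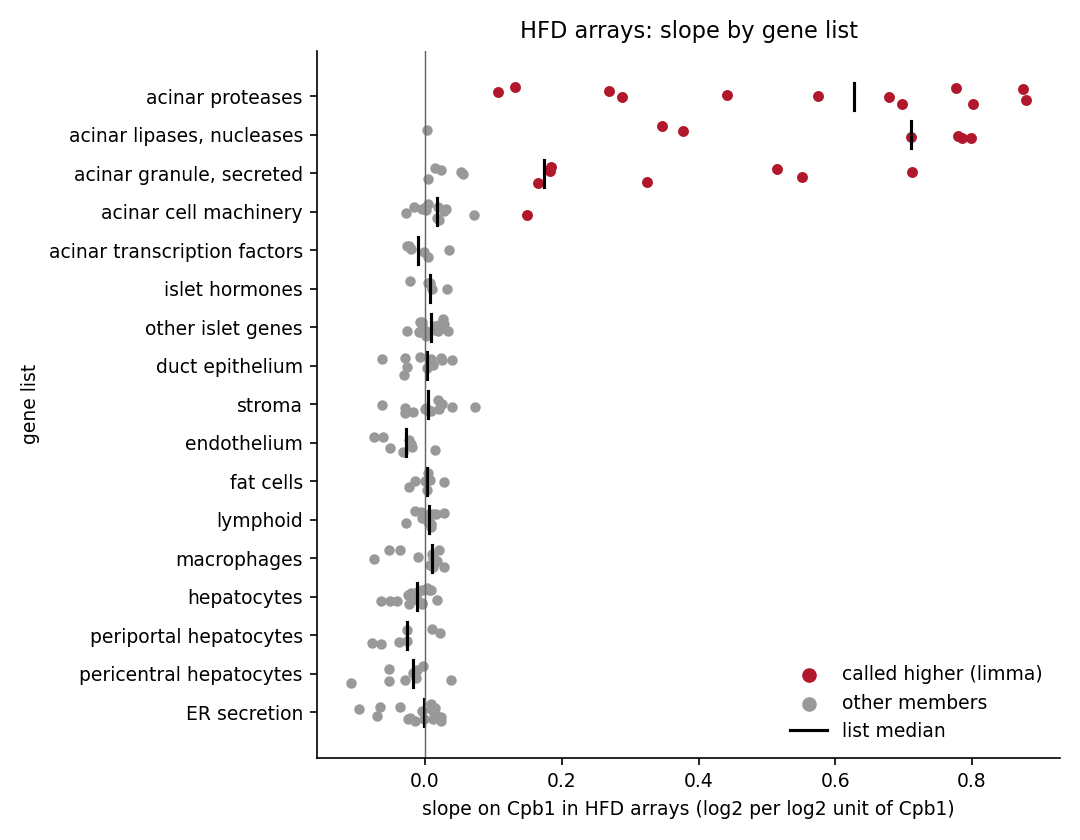
Slope on Cpb1 over the 24 HFD arrays (horizontal axis, log2 units per log2 unit of Cpb1) for each tested gene, grouped by list (vertical axis), with genes called by limma in red and a bar at each list median. The secreted acinar lists have medians of 0.627, 0.711 and 0.174, Pdia2 is the only red point of another list drawn, and the remaining medians drawn lie between -0.028 and 0.018.

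A difference of slope between HFD days was called by limma for 0 of 17988 genes (0%), with 854 genes at an unadjusted p under 0.05. The lowest adjusted p of the interaction among the 28 genes was 0.679. This does not show that the slopes were equal. With each day fitted alone, Prss2 had slopes of 0.734 at 7 days (SE 0.059, limma adjusted p = 0.000151) and 0.691 at 14 days (SE 0.054, limma adjusted p = 8.09e-05), and the lowest, 0.535, at 21 days (SE 0.050, limma adjusted p = 0.00128). Zg16 had 0.656, 0.613 and 0.204 (limma adjusted p = 0.00121, 0.0122 and 0.499), and Gp2 had 0.570, 0.583 and 0.255 (limma adjusted p = 0.00509, 0.00675 and 0.155). Their interaction had unadjusted p-values of 0.00806 and 0.0362 in limma and adjusted p-values of 0.756 and 1.

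The comparison of diets called a small share of all genes and 0 of the acinar genes. In 1 limma fit of all 42 arrays, 251 genes (1.4%), 120 (0.667%) and 126 (0.7%) were called at 7, 14 and 21 days against controls, and 0 of 51 acinar genes were called at any time. With shares this low over all genes, 0 of 51 is near the background and does not show that acinar genes were unchanged. At an unadjusted p under 0.05 in limma there were 1, 1 and 0 acinar genes, and the share over all genes was not counted. Cpb1 changed by 0.96, 0.75 and -0.70 log2 units (SE 0.99 each), with limma adjusted p-values of 0.807, 0.985 and 0.989. With the Cpb1 level as a covariate, 303 (1.68%), 132 (0.734%) and 124 (0.689%) genes were called, and 248, 116 and 118 of them were also called without it.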

How the data were processed

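Liver RNA was extracted with a miRNeasy kit with DNase and biotin-labelled for Affymetrix arrays, per the labels' protocols. The deposited values are log2 expression, made by the authors with RMA in Affymetrix Expression Console 1.1, per the submitters' processing notes. For the array's genome build, the sources used here give none. Of 32624 probe sets 19559 had 1 gene symbol in the platform annotation, 1469 had several and 11596 had none listed; single-symbol probe sets were used, the brightest for each of 841 genes with several. Entrez identifiers of 19474 matched RefSeq. No scaling was added.

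Slopes and diet contrasts were fitted with limma 3.58.1 (lmFit and eBayes, R 4.3.3), 2-sided, with Benjamini-Hochberg adjustment over all genes, and the slope fit was tested on simulated data. Arrays have no read depth, so their number limits precision. Named were the 15 largest and 10 most negative control differences, acinar and islet hormone genes, up to 3 called genes of each list and a few fixed genes, passing over predicted genes. Members and lists were chosen with earlier results of these data known. Alternatives were other scalings, probe set rules, limits, splits by array number, the replicate block, covariates and leaving out each array.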

Additional observations from a re-analysis of the deposited data

Results flagged for a closer look

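In all, 75 groups of values were examined, each of 1 gene in the Cpb1-rich controls, the Cpb1-poor controls or 1 HFD time. Of these, 5 held 1 array that stood apart from the rest, all at HFD times. Chance gives about 1 in 20 for a single group, and genes that vary together are not separate chances. At 21 days, replicate 6 had Rnase1 at 7.12 where the others had 2.87 to 4.76, and Gp2 at 4.27 where the others had 2.52 to 3.15. This array also had the highest Cpb1 of its group, 8.59. At 7 days, replicate 7 had Gcg at 2.90 against 2.36 to 2.52. That array had the highest Cpb1 of all, 10.96, and its Gcg value lay close to the background level of 2.86. At 14 days, replicate 3 was low in both Rgs16, at 6.05 against 7.72 to 9.19, and Depp1, at 5.88 against 7.24 to 7.92, with Cpb1 at 9.09. Replicate 8 of that time had the higher Cpb1, 10.45, with Rgs16 at 8.43 and Depp1 at 7.66.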

How the results depend on the processing

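Arrays 10 to 18 alone gave 25 genes higher and 6 lower past the limit, with 3 Cpb1-rich arrays; leaving out each control gave 16 to 19 higher and 0 to 0 lower. The 16 genes stayed past the limit under quantile normalization, median centring and the mean of probe sets; a subset of the arrays cannot make groups without overlap overlap. Leaving out each HFD array gave 24 to 28 genes rising with Cpb1 and 0 to 1 falling, and 0 to 1 with slopes differing between days. The 1 falling was Gstm3 (-0.129, limma adjusted p = 0.0426) without replicate 5 of 7 days, and the 1 interaction was Zfp455 (limma adjusted p = 0.00738) without replicate 4 of 21 days. Array weights also gave 1 falling, Adra1b (-0.051). In alternatives chosen after seeing the data, 21-day arrays alone gave 10 rising genes, with Cuzd1 reversed at -0.023, and 7-day and 14-day arrays alone gave 19 each. These fits hold fewer arrays. The other alternatives gave 22 to 28. Of the 28 genes, 10 were called under every alternative. Same-numbered HFD arrays of different times did not deviate together in every pair (17 of 24 correlations over 0.1). Their median correlation was 0.2, against -0.03 for arrays of other numbers. Other numbers within 1 to 4 or within 5 to 8 had a median of 0.19, close to that of same numbers, so numbers were not taken as pairs. With the replicate block 26 genes rose with Cpb1, and 77 genes were called at 14 days against controls on arrays 1 to 8, where 85 were called without the block. In dim genes the background limits how much of a difference can be seen.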
